A study of Rattus norvegicus with 9 samples.

Results

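Semaphorins are secreted or membrane-bound proteins that steer growing axons, and plexins are their receptors. Neuropilins are the co-receptors through which most secreted semaphorins reach the plexins. The 29 genes described here are those whose symbols name a semaphorin of classes 3 to 7, a plexin, a plexin domain containing protein (Plxdc) or a neuropilin, and that had a probe set annotated to that symbol alone. They were measured by 52 of the 31042 probe sets of an Affymetrix rat array. A probe set was tested if its mean log2 value over all arrays, taken after adding a pseudocount of 8.25 to each intensity, lay above the 40th percentile, at an intensity of about 17.3, and 36 of the 52 probe sets, from 24 genes, lay above it. Over the array 18625 probe sets were tested.

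The arrays carried total RNA of ventral spinal cord from rat embryos at embryonic day 14, with 5 embryos pooled for each array. Mutant human SOD1 (G93R) was carried as a transgene by 4 pools and wild-type human SOD1 by 4 others, and 1 pool was the negative control, whose description also calls its embryos positive although its title marks it as negative, with the word SDneg. SOD1 codes for a superoxide dismutase, and mutations in it cause inherited amyotrophic lateral sclerosis, a motor neuron disease. The titles carry a different bracketed name for each transgene, so that the mutation and whatever else differs between the sources of the transgenes cannot be told apart. The promoter, the copy number and the rat strain behind each transgene, and the meaning of SD in the negative control's title, are not given in the sources used here. Replicates 2, 3 and 4 of both transgenic groups carry a tag, le2, whose meaning is not given either, while both replicates numbered 1 and the negative control pool are without it. The unit of replication is the pool, so every SD measures the spread between pools. The p-values draw on the spread between transgenic pools, since the single negative control pool has none of its own.

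Semaphorins share a large extracellular sema domain, with which they bind the sema domain of plexins. Bound plexins act inside the cell on small GTPases, among them Rap and R-Ras, and so on the cytoskeleton and adhesion of the growth cone. In the ventral spinal cord of mouse and chick embryos, class 3 and class 6 semaphorins are known to guide motor axons and to keep motor neuron cell bodies inside the cord. In tissue RNA, fewer cells of a type and less RNA per cell cannot be told apart.

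The labelled tissue was checked against markers. Of 8 motor neuron markers, 6 had a probe set and all 6 lay above the filter. Their summed intensity was 2004 to 2979 in mutant pools and 1743 to 2259 in wild-type pools, with 2178 in the negative control. Of 6 progenitor markers 5 lay above the filter and Olig2 below it. All 5 microglial markers and both measured blood markers lay below the filter, as did 7 of 8 mesenchymal and 6 of 7 measured endothelial markers. Above it lay 2 of 5 floor plate, 2 of 4 measured skeletal muscle, 2 of 4 measured sensory ganglion and 1 of 2 measured dorsal cord markers. Rat Sod1 (1367641_at) read 1963 to 2540 in mutant pools and 2099 to 2442 in wild-type pools, with 1699 in the negative control. Whether this probe set also reads RNA of the human transgenes was not tested. The ratio of 3' to 5' probe sets of beta-actin, a sign of RNA quality, was 6.98 to 7.98 in mutant pools and 8.19 to 19.2 in wild-type pools, with 6.66 in the negative control. The mutant and wild-type pools did not overlap in it (exact two-sided permutation p = 0.0286, the lowest value possible with 70 arrangements), and wild-type replicate 2 held the value of 19.2. The same ratio of GAPDH was 2.49 to 2.59 in mutant pools and 2.59 to 3.56 in wild-type pools, with 2.68 in the negative control (exact two-sided permutation p = 0.0571).

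**Figure D1:**
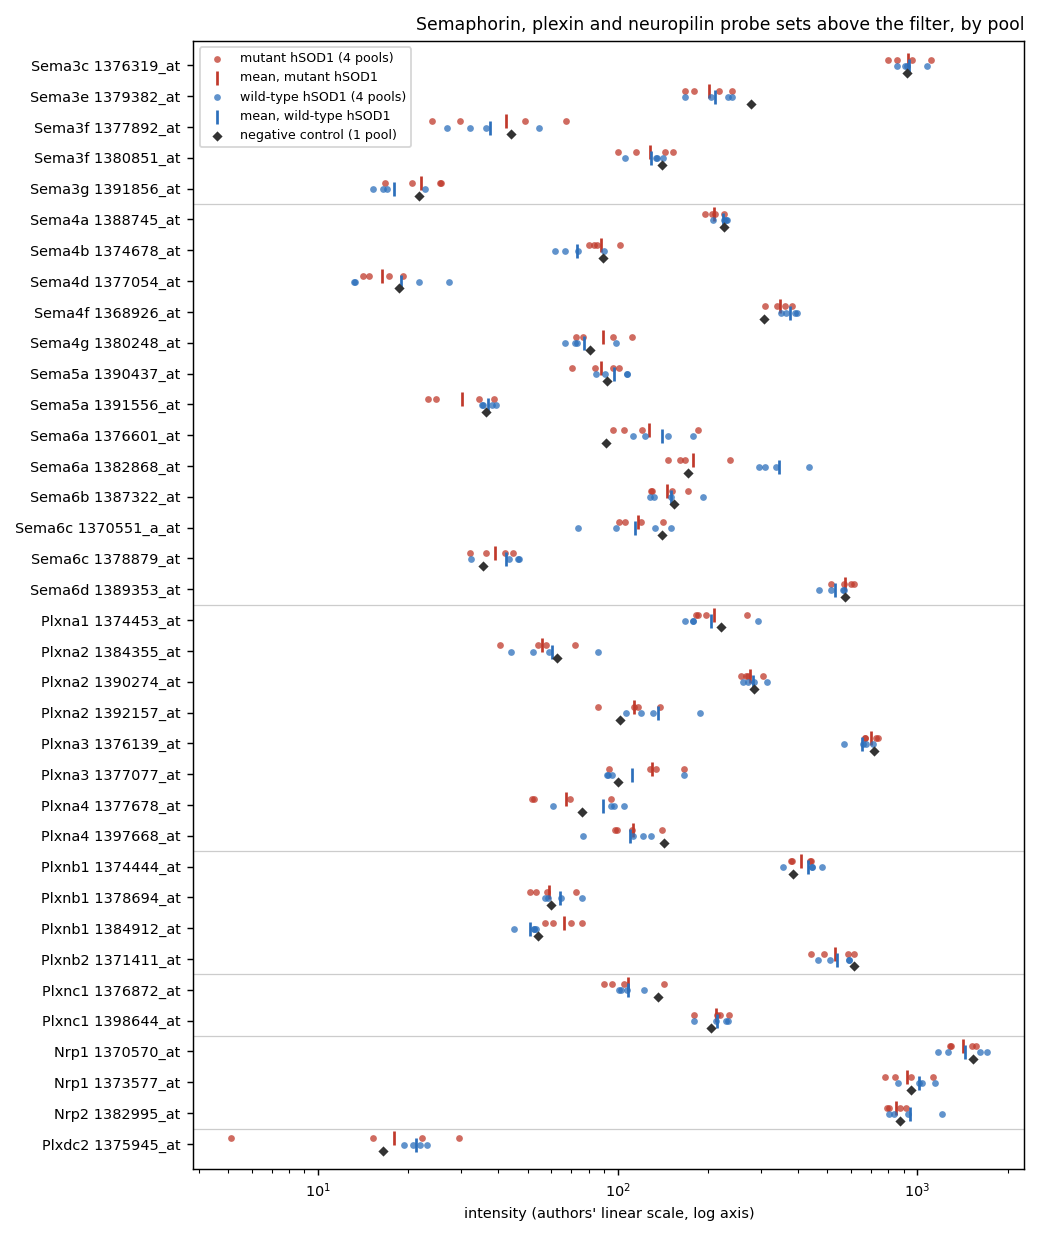
Intensity (log axis) of the 36 semaphorin, plexin and neuropilin probe sets above the filter in 4 mutant pools (red), 4 wild-type pools (blue) and the negative control (black diamond), with group means as vertical bars; grey lines separate the gene classes. Mutant and wild-type pools are apart only at Sema6a 1382868_at and Plxnb1 1384912_at. Intensities of different probe sets cannot be set against each other.

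Mutant and wild-type hSOD1 pools differed most at Sema6a, a transmembrane semaphorin that binds Plxna2 and Plxna4. On 1 of its probe sets the mutant pools averaged 178 ± 39.97 and the wild-type pools 345 ± 61.9 (SD, n = 4 each), which is −0.93 on the log2 scale and missed the threshold after adjustment over all probe sets. A probe set of Plxnb1, a receptor of Sema4d, had 66.0 ± 8.71 in mutant and 50.9 ± 3.96 in wild-type pools, or 0.32 on the log2 scale, and also missed it. At every other member probe set, mutant and wild-type pools overlapped. This comparison sets pools with the mutant transgene against pools with the wild-type transgene, whose sources also differ by name in the titles.

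None of the 36 member probe sets passed an adjusted p of 0.05 in limma, against 3 of 18625 over the array (0.0161%). At an unadjusted p under 0.05 stood 2 of the 36, or 5.56%, against 4.93% of all tested probe sets, so the members' share was near that of the array. The groups did not overlap at the same 2 probe sets, against 2.95% of all tested probe sets. Of the 36, 11 were higher and 25 lower in mutant pools, with a median log2 difference of −0.04, while over all tested probe sets 53.7% were higher and the median was 0.01. With the beta-actin ratio of each array as a covariate the members split into 19 higher and 17 lower. The 95% intervals of the members reached a median of 0.31 on the log2 scale to each side. Smaller differences of a typical member could therefore not be told from 0. Larger ones could still miss the adjusted threshold, as at Plxnb1 1384912_at (0.32, limma adjusted p = 0.929) and Sema6a 1382868_at (−0.93, limma adjusted p = 0.133).

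The secreted class 3 semaphorins, which repel or attract axons through neuropilins, had 9 probe sets for 7 genes. Sema3a, the ligand best known for repelling motor and sensory axons through Nrp1, lay below the filter at 2.49 to 13.8 in mutant pools and 1.63 to 11.1 in wild-type pools, with 11.6 in the negative control. Sema3b stood at 0.523 to 8.22 in mutant pools and 1.89 to 8.62 in wild-type pools, with 6.15 in the negative control, and Sema3d at 3.79 to 7.71, 3.59 to 10.1 and 11.4 in the same order. A dim probe set is no measure of absence, since probe sets differ in how well they bind.

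Sema3c, a secreted ligand of neuropilins that also guides vessels and the cardiac neural crest in mouse, had 1113, 857, 958 and 799 in mutant pools. It had 856, 910.0, 923 and 1074 in wild-type pools, with 920.0 in the negative control. The groups overlapped almost completely, and they differed by −0.02 on the log2 scale (95% interval −0.25 to 0.21). Sema3f, which acts mainly through Nrp2, differed by −0.02 (95% interval −0.33 to 0.29) on 1380851_at and by 0.11 (−0.45 to 0.66) on 1377892_at. On 1377892_at replicate 4 was the highest pool in both groups, at 67.0 among mutant and 54.5 among wild-type pools. Sema3g, a class 3 semaphorin known from vessels, differed by 0.22 (−0.15 to 0.59) on 1391856_at and lay below the filter on its other probe set.

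Sema3e, which in mouse binds Plxnd1 without a neuropilin, had 179.5, 168, 241 and 218 in mutant pools. It had 167, 205, 241 and 234 in wild-type pools, with 278 in the negative control. All 8 transgenic pools lay below the negative control, while mutant and wild-type pools overlapped with a log2 difference of −0.07 (95% interval −0.37 to 0.23). Its receptor gene Plxnd1 lay below the filter, at 8.11 to 15.6 in mutant pools and 7.96 to 16.5 in wild-type pools, with 17.7 in the negative control.

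Sema6a carried the widest difference of the family. On 1382868_at it had 147, 168, 162 and 237 in mutant replicates 1 to 4, and 296, 434, 311 and 339 in wild-type replicates 1 to 4. The negative control had 172. Every mutant pool lay below every wild-type pool, and the negative control lay within the range of the mutant pools. The log2 difference of −0.93 had a standard error of 0.152 (95% interval −1.26 to −0.60, limma adjusted p = 0.133). Over the array, 4 probe sets had a smaller p.

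The call of this probe set depended on the setting. With arrays centred on their medians the log2 difference was −0.95 and passed (limma adjusted p = 0.0368), and without mutant replicate 4, the highest of its group, it was −1.07 and passed (limma adjusted p = 0.045). Over all 23 alternatives the difference ran from −1.07 to −0.74 and the limma adjusted p from 0.0368 to 0.959. The beta-actin ratio was higher in wild-type than in mutant pools, and wild-type replicate 2 had both the highest ratio and the highest Sema6a value. Wild-type replicates 1, 3 and 4 had ratios of 9.20, 8.52 and 8.19 beside Sema6a values of 296, 311 and 339. Among mutant pools, replicate 2 had the highest ratio, 7.98, with a Sema6a value of 168. Mutant replicate 4 had the highest value, 237, with a ratio of 7.02. Mutant and wild-type pools did not overlap in this ratio, so the ratio and the transgene cannot be told apart here. With the beta-actin ratio as a covariate the difference was −0.74 (limma adjusted p = 0.959), and without wild-type replicate 2 it was −0.82 (limma adjusted p = 0.258). Among the 3 pools per group that carry the le2 tag the difference was −0.91, and between the 2 pools that lack it −0.97.

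On the other tested Sema6a probe set the difference was smaller. On 1376601_at Sema6a had 105, 121, 96.6 and 185 in mutant pools and 112, 178, 124 and 148 in wild-type pools, with 91.5 in the negative control. The groups overlapped, and the log2 difference was −0.16 (95% interval −0.57 to 0.25, limma adjusted p = 0.950). Its other 3 probe sets (1376220_at, 1378005_at and 1396046_at) lay below the filter, between 0.511 and 12.2 in mutant pools and between 1.49 and 11.98 in wild-type pools.

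The log2 ratio of 1382868_at over 1376601_at, taken within each pool after adding the pseudocount, was 0.45, 0.45, 0.70 and 0.34 in mutant pools and 1.34, 1.24, 1.28 and 1.15 in wild-type pools, with 0.85 in the negative control. The negative control thus lay between both groups, which did not overlap. This ratio was formed after both probe sets had been seen and is given without a test. The difference between the 2 probe sets came to 0.77 on the log2 scale. Of the 2562 genes with several tested probe sets, 22 (0.859%) had a gap as wide or wider between their probe sets. Which parts of the Sema6a transcript these probe sets measure was not analysed here.

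**Figure D2:**
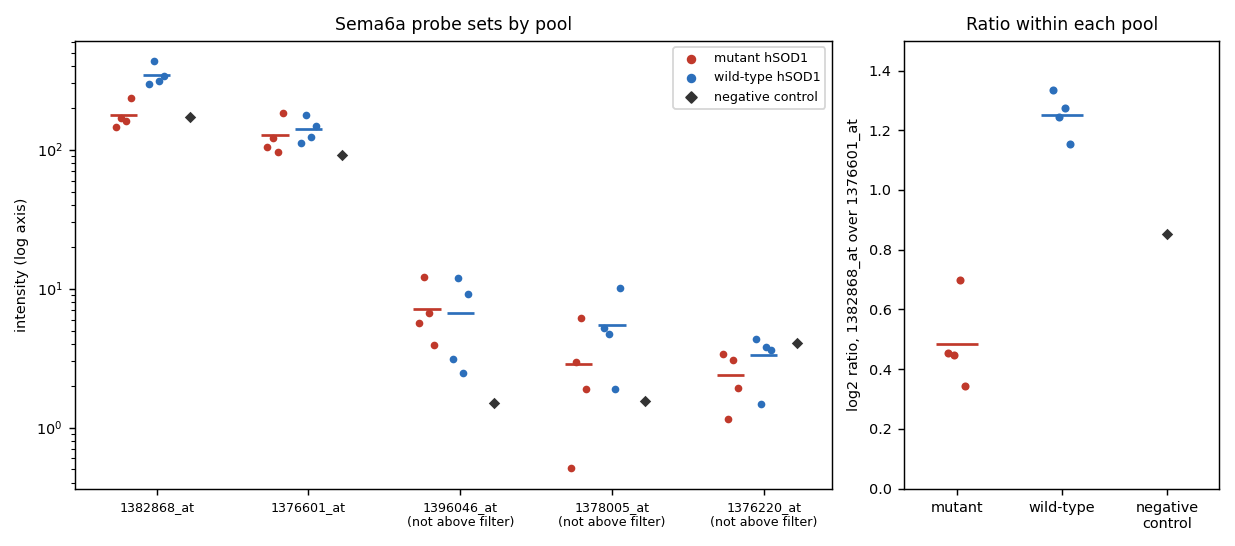
Left, intensity (log axis) of the 5 Sema6a probe sets in mutant (red), wild-type (blue) and negative control (black diamond) pools, bars marking group means. Right, log2 ratio of 1382868_at over 1376601_at in each pool: 0.34 to 0.70 in mutant pools and 1.15 to 1.34 in wild-type pools, with 0.85 in the negative control.

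The other transmembrane semaphorins of classes 4 to 6 had overlapping groups. With both tested Sema6a probe sets included, 4 of 13 probe sets of these classes were higher and 9 lower in mutant pools, with a median of −0.10. Over all tested probe sets 53.7% were higher. Sema4b, which binds the scaffold protein PSD-95, came nearest on the higher side. It had 83.2, 85.3, 80.4 and 102 in mutant pools and 73.7, 66.8, 61.6 and 89.7 in wild-type pools, with 89.3 in the negative control. The log2 difference was 0.25 (95% interval −0.05 to 0.54, limma adjusted p = 0.929), and wild-type replicate 4 alone reached into the mutant range. Sema6d, a ligand of Plxna1 in chick heart and mouse, had 575 ± 45.4 in mutant and 529 ± 45.3 in wild-type pools, or 0.12 on the log2 scale (−0.08 to 0.32).

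Sema5a, which carries thrombospondin repeats beside its sema domain, had 23.3, 38.7, 24.8 and 34.3 on 1391556_at in mutant pools and 38.2, 35.2, 35.5 and 39.3 in wild-type pools, with 36.4 in the negative control. Mutant replicates 1 and 3 were low, and the log2 difference was −0.25 (95% interval −0.60 to 0.09). A second probe set of Sema5a, 1390437_at, gave −0.14 (−0.44 to 0.15) and the other 2 lay below the filter. Sema4a, known from immune cells and the retina, had 196 to 226 in mutant and 208 to 232 in wild-type pools, or −0.09 on the log2 scale (−0.29 to 0.11), and Sema4f, a neuronal semaphorin, gave −0.11 (−0.31 to 0.09). Sema4d, the ligand of Plxnb1, gave −0.11 (−0.54 to 0.32) at intensities just above the filter, with 16.3 ± 2.31 in mutant and 18.9 ± 6.87 in wild-type pools. Sema4g, which binds Plxnb2 in mouse, gave 0.18 (−0.16 to 0.52), and Sema6b, a ligand of Plxna2 and Plxna4 in mouse hippocampus, gave −0.04 (−0.35 to 0.27). Sema6c gave 0.07 (−0.34 to 0.47) on 1370551_a_at and −0.10 (−0.43 to 0.23) on 1378879_at.

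The A plexins, the signalling receptors of the class 3 and class 6 semaphorins, had 8 tested probe sets for 4 genes, of which 4 were higher and 4 lower in mutant pools. Plxna4, through which Sema3a and Sema6a act, came nearest to the threshold on 1377678_at. It had 51.7, 52.5, 95.1 and 69.4 in mutant pools and 60.8, 105, 94.9 and 97.3 in wild-type pools, with 75.7 in the negative control. Each group had pools on both sides of the negative control, and the log2 difference was −0.38 (95% interval −0.81 to 0.04, limma adjusted p = 0.929). The second Plxna4 probe set, 1397668_at, gave 0.04 (−0.31 to 0.39).

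Plxna2, the other receptor of Sema6a, had 3 tested probe sets with log2 differences of −0.23 (95% interval −0.61 to 0.14), −0.08 (−0.50 to 0.34) and −0.04 (−0.25 to 0.17) on 1392157_at, 1384355_at and 1390274_at. On the first of them wild-type replicate 2 was high at 188, with 107 to 131 in the other wild-type pools and 85.6 to 139 in mutant pools, and with the beta-actin ratio as a covariate its sign turned to 0.08. Plxna3, a receptor with Nrp2 for Sema3f, gave 0.10 (−0.09 to 0.29) on 1376139_at, with 700.3 ± 37.3 in mutant and 653 ± 60.1 in wild-type pools, and −0.02 with that covariate. On 1377077_at it gave 0.22 (−0.20 to 0.65). Plxna1 gave 0.05 (−0.33 to 0.42) on 1374453_at and lay below the filter on its other 2 probe sets.

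Replicate 4 stood out at several of these probe sets in both groups. Plxna1 (1374453_at) read 271 in mutant replicate 4, with 183 to 196 in the other mutant pools, and 293 in wild-type replicate 4, with 168 to 179 in the other wild-type pools. Plxna3 (1377077_at) read 166 in replicate 4 of each group. The other mutant pools lay between 93.8 and 134 and the other wild-type pools between 92.2 and 96.0. Replicate 4 was the highest pool of both groups at 7 of the 36 member probe sets (19.4%), against 10.4% of all tested probe sets, and replicate 2 at 6 (16.7%), against 8.77%. The labels do not say that a replicate number marks a shared litter or day.

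**Figure D3:**
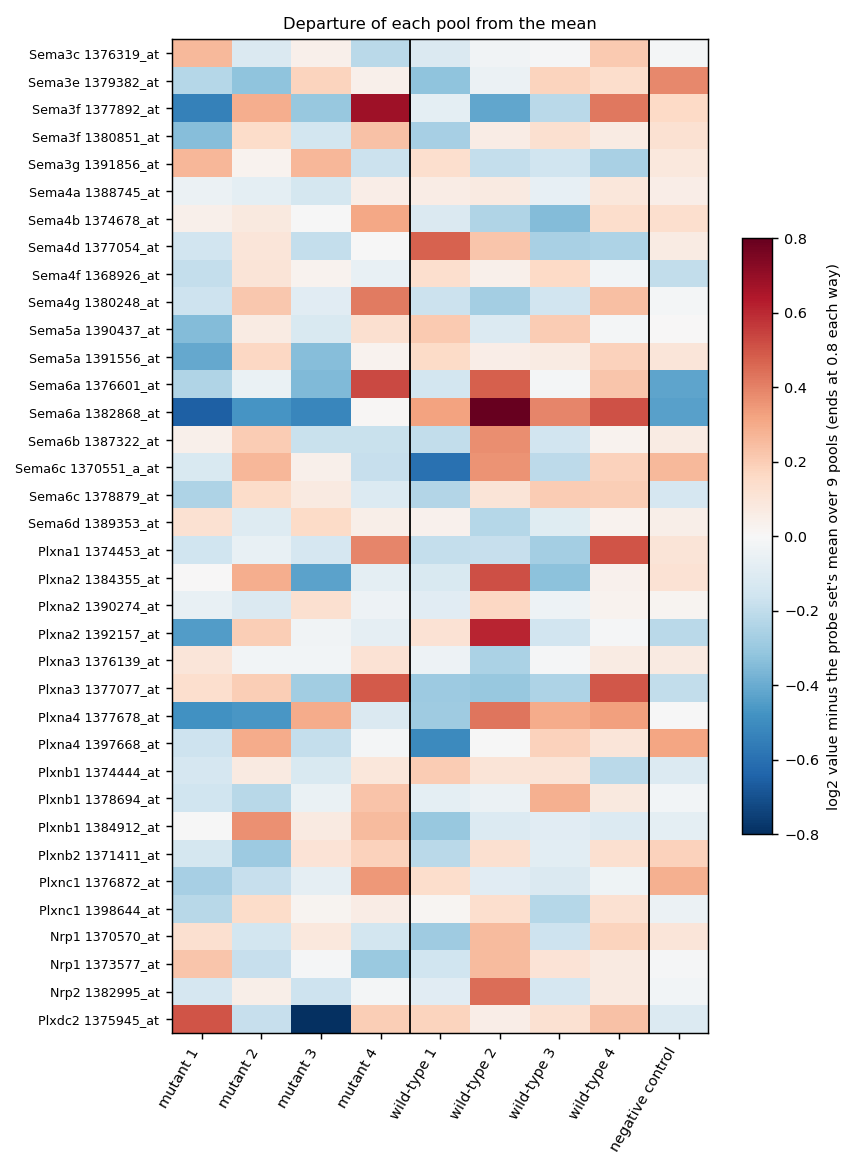
Log2 value of each member probe set in each pool minus its mean over the 9 pools (red above, blue below, scale ending at 0.8 each way), with mutant pools left, wild-type pools in the middle and the negative control right. Sema6a 1382868_at is blue in mutant replicates 1 to 3 and the negative control and red in all 4 wild-type pools, and replicate 4 is red in both groups at Plxna1 1374453_at and Plxna3 1377077_at.

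The B plexins bind class 4 semaphorins. Plxnb1 had 57.1, 76.3, 60.7 and 69.9 on 1384912_at in mutant pools and 45.0, 52.7, 53.3 and 52.6 in wild-type pools, with 54.0 in the negative control. Every mutant pool lay above every wild-type pool and above the negative control. The log2 difference of 0.32 had a 95% interval that excluded 0 (0.04 to 0.61), while its limma adjusted p was 0.929. On both other probe sets of Plxnb1 the sign was opposite and the groups overlapped, with −0.07 (−0.30 to 0.16) on 1374444_at and −0.11 (−0.42 to 0.19) on 1378694_at. Plxnb2, a receptor of Sema4c and Sema4g in mouse, gave −0.02 (−0.28 to 0.23). Plxnc1, the receptor of Sema7a, gave −0.02 (−0.32 to 0.29) on 1376872_at and −0.01 (−0.26 to 0.24) on 1398644_at.

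The neuropilins bind class 3 semaphorins and also vascular endothelial growth factors. Nrp1, the binding partner of Sema3a, had 1565, 1288, 1517 and 1292 on 1370570_at in mutant pools and 1170.2, 1703, 1270 and 1618 in wild-type pools, with 1530 in the negative control. The groups overlapped, with a log2 difference of −0.01 (95% interval −0.27 to 0.24), and a second probe set, 1373577_at, gave −0.14 (−0.39 to 0.11). Nrp2, the binding partner of Sema3f, had 806, 916, 792 and 878 on 1382995_at in mutant pools and 835, 1211, 807 and 933 in wild-type pools, with 873 in the negative control. Mutant pools differed from wild-type pools by −0.14 (−0.39 to 0.11), and wild-type replicate 2 was the highest pool. With the beta-actin ratio as a covariate the sign of Nrp2 turned to 0.08. Another Nrp2 probe set, 1369824_at, was dim and untested, at 0.686 to 4.17 in mutant pools and 0.431 to 9.19 in wild-type pools, with 4.11 in the negative control.

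Plxdc1 and Plxdc2 are named for a plexin-like domain and are not semaphorin receptors; both are known as receptors of the secreted factor PEDF. Plxdc2 lay just above the filter, at 29.4, 15.2, 5.13 and 22.2 in mutant pools and 21.8, 19.4, 20.7 and 23.1 in wild-type pools, with 16.5 in the negative control. The mutant pools spread widely around the wild-type pools, and the log2 difference was −0.27 (95% interval −0.84 to 0.30). Both Plxdc1 probe sets lay below the filter, at 2.91 to 22.3 in mutant pools and 6.28 to 21.9 in wild-type pools.

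**Figure D4:**
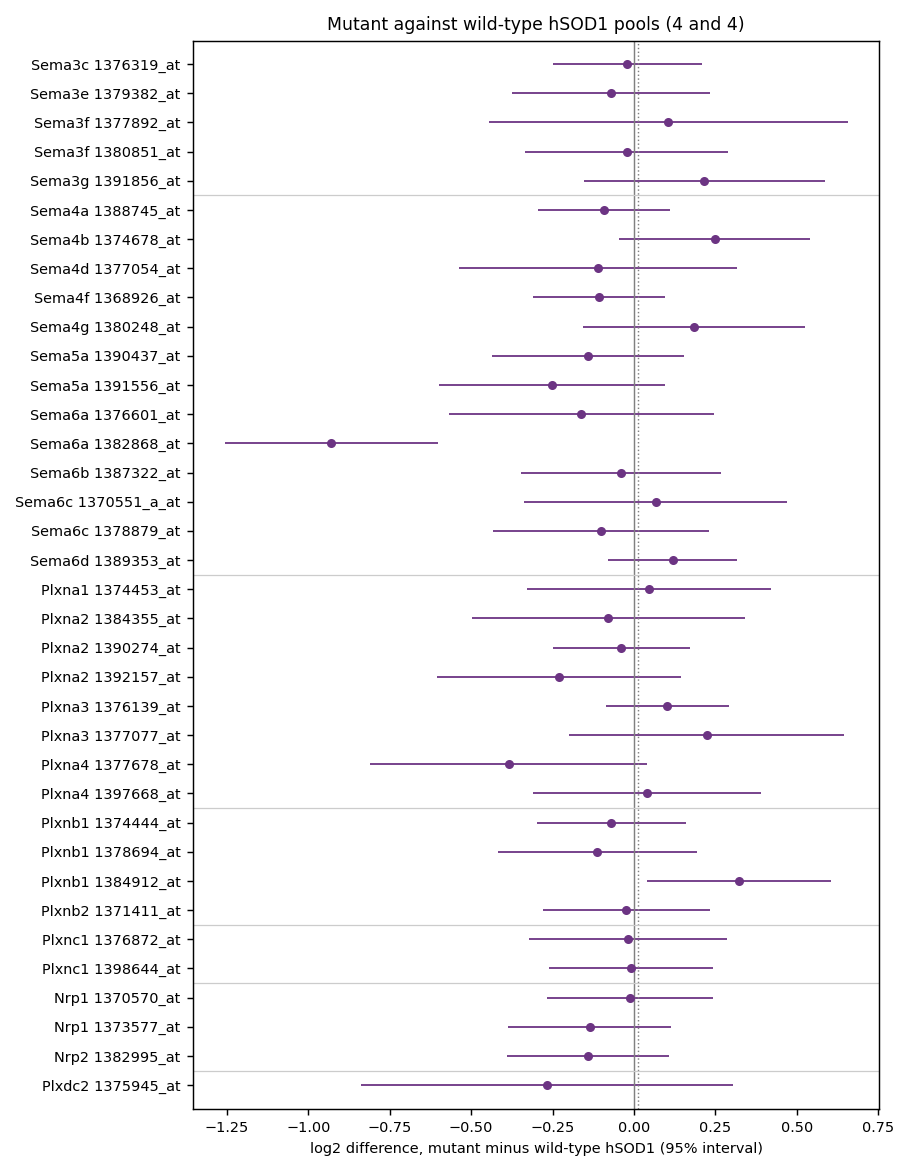
Log2 difference, mutant minus wild-type hSOD1, of the 36 tested member probe sets with 95% intervals from limma; the solid line is 0 and the dotted line the median of all tested probe sets (0.01). The intervals of Sema6a 1382868_at (−1.26 to −0.60) and Plxnb1 1384912_at (0.04 to 0.61) exclude 0, and the other 34 include it.

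Several genes could be followed on more than 1 probe set. Of 10 member genes with several tested probe sets, 6 had the same sign on all of them, or 60%, against 47.3% of the 2562 genes of the array. The median gap between the probe sets of a gene was 0.15 on the log2 scale for members and 0.16 for all genes. After Sema6a the widest gaps were those of Plxnb1 at 0.44 and Plxna4 at 0.42, and 9.17% and 9.91% of all genes had gaps as wide. The pools also varied among themselves: the median SD of the log2 value over members reached 0.21 in mutant pools and 0.19 in wild-type pools, against 0.15 and 0.19 over all tested probe sets.

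Genes that carry the semaphorin signal onward, taken from a list of cytoplasmic partners, GTPases and cytoskeletal effectors, did not pass either. Of 34 list members above the filter 0 passed in limma, 22 were higher and 12 lower in mutant pools, with a median log2 difference of 0.05. Over all tested probe sets 53.7% were higher and the median was 0.01. At an unadjusted p under 0.05 stood 1 of the 34, against 4.93% of all tested probe sets. That was Arhgef12, an exchange factor bound to B plexins, with 44.6 ± 3.60 in mutant and 33.7 ± 7.76 in wild-type pools (log2 difference 0.35, limma adjusted p = 0.929). Rras, a GTPase that plexins inactivate, had 31.1 ± 5.73 in mutant and 21.0 ± 11.9 in wild-type pools, and Pip5k1c, a lipid kinase of adhesion sites, 492 ± 30.1 and 568 ± 77.1.

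Of 12 co-receptors and other neuropilin partners above the filter, 0 passed in limma and 0 had an unadjusted p under 0.05, with 8 higher, 4 lower and a median of 0.08. Over all tested probe sets 4.93% had such a p, 53.7% were higher and the median was 0.01. The adhesion molecule Cntn2 had 43.8 ± 4.59 in mutant and 51.3 ± 8.82 in wild-type pools. Ret and Gfra1, which form the receptor of GDNF, a growth factor of motor neurons, had 619 ± 114 and 502 ± 36.3 in mutant pools and 565 ± 36.6 and 470 ± 56.0 in wild-type pools. All 3 had an interval that included 0. Motor neuron markers were higher in mutant pools at 5 of 6 probe sets, where 53.7% of all tested probe sets were higher, and 0 passed in limma. At an unadjusted p under 0.05 stood 1 of them, Isl1, where 4.93% of all tested probe sets did. Isl1 had 468 ± 104 in mutant pools against 337 ± 36.9 in wild-type pools (limma adjusted p = 0.929). Both tested sensory ganglion markers were higher as well, and 1 of them, Runx1, had an unadjusted p under 0.05. Runx1 had 111 ± 15.1 in mutant pools against 70.7 ± 24.2 in wild-type pools (limma adjusted p = 0.929). Runx3 and Avil lay below the filter and had lower means in mutant pools. Runx3 had 9.89 ± 4.64 in mutant and 15.0 ± 4.66 in wild-type pools, and Avil 14.3 ± 4.72 and 15.8 ± 2.10. Isl1 and Runx1 were singled out after their values were seen. The 4 measured sensory ganglion markers summed to intensities of 263 to 335 in mutant pools and 193 to 319 in wild-type pools, with 248 in the negative control. Their part in the differences above was not tested.

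Against the negative control, the comparison asks what both transgenes share, and only 1 control pool was measured. Sema6a was higher in the wild-type pools on 1382868_at, at 345 ± 61.9 (n = 4) against 172 in the negative control, while the mutant pools had 178 ± 39.97. Sema3e was lower in all 8 transgenic pools, and Sema6a on 1376601_at was higher in all 8. None of these differences passed the threshold. The single control is assumed in the fit to vary like the transgenic pools, and the 3 comparisons against it share it.

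For both transgenic groups together 0 of 36 members passed in limma (0% over the array) and 0 had an unadjusted p under 0.05 (3.12% over the array). For the mutant pools alone 0 passed (0% over the array) and 0 had an unadjusted p under 0.05 (2.29%). For the wild-type pools alone 0 passed (0% over the array) and 1 had an unadjusted p under 0.05, or 2.78% against 4.28%. That was Sema6a on 1382868_at, with a log2 difference of 0.96 (95% interval 0.44 to 1.48, limma adjusted p = 0.980). The mutant pools differed from the negative control by 0.03 (−0.49 to 0.55) on the same probe set. These values rest on the same arrays as the difference between mutant and wild-type pools and add no separate evidence to it. Both groups together differed from the negative control by 0.49 (limma adjusted p = 1).

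With the le2 tag as a covariate, more members had an unadjusted p under 0.05 against the negative control, and 0 passed after adjustment in limma. They were 3 of 36 for both groups together (8.33%, against 3.59% of all tested probe sets), 2 for mutant pools (5.56% against 3.11%) and 4 for wild-type pools (11.1% against 4.39%). Sema3e and Plxna4 on 1397668_at were among them in all 3 comparisons, at log2 differences of −0.69 and −0.63 in mutant pools and −0.62 and −0.67 in wild-type pools. Sema6c on 1370551_a_at was among them for both groups together and for wild-type pools, at −0.65 in wild-type pools. Sema6a on 1382868_at was the remaining one for wild-type pools, at 0.73. The negative control lacks the tag, so this covariate sets the differences at the level of pools without it. For both groups together the estimate is the mean log2 value of the 2 transgenic replicates numbered 1 minus the control. Mutant replicate 1 was the lowest of its group at 15 of the 36 member probe sets and the highest at 5. For wild-type replicate 1 these counts were 16 and 6, and the shares over all tested probe sets are not given here.

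All 8 transgenic pools lay on the same side of the negative control at 5 of 36 member probe sets (13.9%), against 19.7% of all tested probe sets. They were above it at Sema4f and at Sema6a on 1376601_at, and below it at Sema3e, at Plxna4 on 1397668_at and at Plxnb2. Sema3e had a log2 difference of −0.46 in mutant pools (95% interval −0.94 to 0.02) and −0.39 in wild-type pools (−0.87 to 0.09). Sema6a on 1376601_at had 0.40 in mutant pools (−0.25 to 1.04) and 0.56 in wild-type pools (−0.09 to 1.20). With the le2 tag as a covariate these became 0.15 and 0.31, and without mutant replicate 4 the value of the mutant pools became 0.21. Plxna4 on 1397668_at had −0.33 and −0.37 in mutant and wild-type pools, and Plxnb2 −0.22 and −0.19. Plxnb2 had 489, 440.4, 585 and 614 in mutant pools and 464, 592, 509 and 591 in wild-type pools, with 614 in the negative control, so that mutant replicate 4 stood level with it. Sema4f had 309.7, 382, 362 and 341 in mutant pools and 390.2, 365, 398 and 349.9 in wild-type pools, with 308.6 in the negative control, so that the lowest mutant pool lay barely above it. The limma adjusted p of these members was 1 in mutant pools and 0.980 in wild-type pools.

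Plxnc1 on 1376872_at had 90.3, 96.1, 105 and 142 in mutant pools and 122, 103, 101 and 107 in wild-type pools, with 136 in the negative control. Only mutant replicate 4 lay above the negative control, and the log2 differences were −0.33 (95% interval −0.81 to 0.15) in mutant and −0.31 (−0.79 to 0.17) in wild-type pools. On its other probe set they were 0.05 in each group. Sema6c on 1370551_a_at had 101 to 141 in mutant pools and 73.9 to 151 in wild-type pools, with 140.04 in the negative control, and its log2 differences were −0.26 for the mutant and −0.32 for the wild-type pools. Plxna2 on 1392157_at differed by 0.13 in mutant and 0.36 in wild-type pools, Plxna3 on 1377077_at by 0.33 and 0.11, and Sema4b by −0.03 and −0.28. On 1384912_at Plxnb1 differed by 0.25 in mutant pools and −0.08 in wild-type pools, on 1374444_at by 0.09 and 0.15, and Sema5a by −0.23 and 0.02 on 1391556_at. Each of these intervals included 0. The neuropilins lay near the negative control on all 3 tested probe sets, with log2 differences from −0.12 to −0.04 in mutant pools and from −0.10 to 0.10 in wild-type pools. The intervals in these comparisons reached a median of 0.48 to each side for each transgenic group. With 1 control pool, smaller differences of a typical member could not be told from 0. Larger ones could still miss the adjusted threshold, as Sema6a on 1382868_at did at 0.96 in wild-type pools (limma adjusted p = 0.980).

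**Figure D5:**
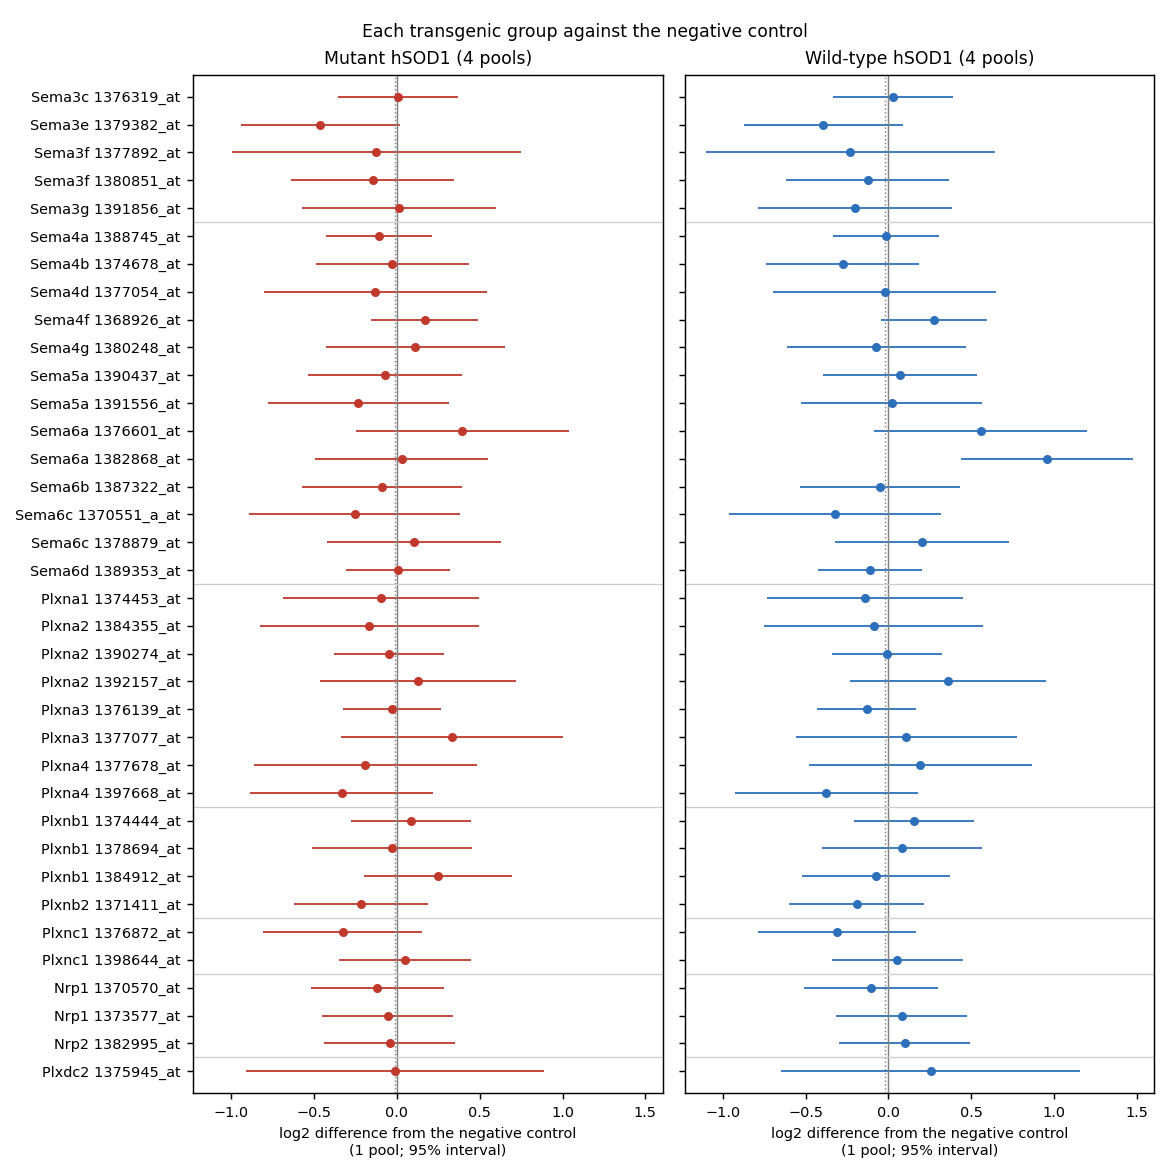
Log2 difference from the single negative control pool with 95% intervals, for mutant pools (left) and wild-type pools (right); the solid line is 0 and the dotted line the median of all tested probe sets. Only the interval of Sema6a 1382868_at in wild-type pools (0.44 to 1.48) excludes 0, and in mutant pools the same probe set lies at 0.03.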

How the data were processed

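RNA of ventral spinal cord was measured on 9 Affymetrix arrays, 1 per pool of embryos: 4 mutant hSOD1 pools, 4 wild-type hSOD1 pools and 1 negative control, as titles and descriptions group them. The values are the authors' deposited intensities, linear and 1 for each probe set in each array; the labels name no software for them. The mean after trimming 2% at each end was the same in all arrays, and array medians lay between 31.0 and 33.9, so no normalization was added.

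Of 31099 probe sets, 57 Affymetrix controls were left out of the tests. Of the other 31042, 20826 had 1 gene symbol in the platform annotation, 436 several and 9780 none. The Entrez identifiers of all 52 member probe sets were found in the RefSeq gene table. No genome positions were derived for probe sets.

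From the deposited intensities, log2 values were taken after adding 8.25, the 25th percentile, and fitted with limma 3.58.1 in R 4.3.3 (lmFit, eBayes with an intensity trend) after the filter at the 40th percentile. Adding this pseudocount understates the differences of dim probe sets. Adjustment was Benjamini-Hochberg over all 18625 tested probe sets, with a threshold of 0.05. Mutant and wild-type pools were compared on their 8 arrays, and each comparison with the negative control used all 9. The fit was tested on simulated data. The number of arrays limits the precision.

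Probe sets were named by rule: any past the threshold, up to 5 per direction and comparison with the smallest p, the other probe sets of those genes, and the brightest probe set of each other member gene. From the signal transducer and co-receptor lists up to 3 genes each with the smallest p were named, and marker lists were given as counts and ranges. Further member probe sets were named to account for all members. The members and lists were chosen with earlier results of these data known. Alternatives were other normalizations, pseudocounts, filters and variance models, 1 probe set per gene, array weights, the beta-actin ratio, the le2 tag, a replicate block, all arrays in 1 fit, and leaving out each transgenic array.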

Additional observations from a re-analysis of the deposited data

Results flagged for a closer look

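In each group of 4 pools, the gap of the highest and of the lowest pool to its nearest neighbour was set against Dixon's 95% critical value, for the 36 tested member probe sets, or 72 groups. Chance flags about 1 in 20 groups, which would be 3.6 of them, and 3 pools stood out. Plxna1 on 1374453_at read 293 in wild-type replicate 4, with 168 to 179 in the other wild-type pools. Plxna3 on 1377077_at read 166 in wild-type replicate 4, with 92.2 to 96.0 in the other wild-type pools. Plxnb1 on 1384912_at read 45.0 in wild-type replicate 1, with 52.6 to 53.3 in the other wild-type pools.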

How the results depend on the processing

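Of 840 values of named member differences under the alternatives, 834 kept their direction and their side of the threshold, 2 passed it and 4 turned their sign. In many of them the direction could not change, since other filters and variance models leave the difference itself as it was. Leaving out an array of 1 transgenic group likewise leaves the other group's difference from the negative control as it was. The count is therefore no measure of stability. Both that passed were Sema6a on 1382868_at between mutant and wild-type pools, at −0.95 with median centring and −1.07 without mutant hSOD1 replicate 4, so that the count of members called was 1 there and 0 to 1 over the fits that left out 1 array. With the beta-actin ratio as a covariate, the difference between mutant and wild-type pools became 0.082 for Nrp2 on 1382995_at, 0.083 for Plxna2 on 1392157_at and −0.023 for Plxna3 on 1376139_at, and that between wild-type pools and the negative control −0.033 for Plxna2 on 1392157_at. The cause was not tested.

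Over the array, 3 probe sets were called between mutant and wild-type pools. The limma count was 5 with median centring, 1 with no filter, with the filter at the 60th percentile or with the le2 tag as a covariate, and 0 without an intensity trend (993 at an unadjusted p under 0.05), with the beta-actin covariate (680) or without the arrays lacking the le2 tag (670). It ran from 1 to 3 when 1 array was left out, with 1 without mutant replicate 1, wild-type replicate 1 or wild-type replicate 3. Against the negative control, 1 probe set in place of 0 was called for both transgenic groups together and for wild-type pools with median centring, with the smaller pseudocount of 2.06, with 1 probe set per gene and without the arrays lacking the le2 tag, and 0 to 1 when 1 array was left out, with 1 without wild-type replicate 1. For mutant pools 1 was called with the smaller pseudocount.

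The correlations of same-numbered mutant and wild-type pools in their departures from the group means were 0.12, 0.09, −0.07 and 0.20. Those of differently numbered pools ran from −0.23 to 0.21. The numbers were not taken to pair the pools, though these correlations do not settle whether they do. With a replicate block 3 probe sets and 0 members were called between mutant and wild-type pools, as without it, and 1211 probe sets in place of 918 had an unadjusted p under 0.05; Sema6a on 1382868_at stayed at −0.93 (limma adjusted p = 0.0619). Stricter filters, the larger pseudocount and 1 probe set per gene left some named probe sets without a value. With 4 pools per group and 1 control, the number of arrays limits what could be detected.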

Other observations

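Against the negative control, the genes downstream of plexins and the co-receptors were also without a call. Of 34 signal transducers above the filter, 18 were higher and 16 lower in both transgenic groups together, 16 higher and 18 lower in mutant pools, and 15 higher and 19 lower in wild-type pools. Of 12 co-receptors and neuropilin partners, 9 were higher and 3 lower in both groups together and in mutant pools, and 8 higher and 4 lower in wild-type pools. Over all tested probe sets 46.5% were higher for both groups together, 47.8% for mutant pools and 45.7% for wild-type pools. In all 3 comparisons 0 passed the limma threshold, as over the array.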
